A study of Mus musculus with 4 samples.

Results

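Some of the dorsomedial striatum (DMS) captures of the series carried abundant RNA of transthyretin (Ttr), the most characteristic transcript of the choroid plexus, and others carried almost none. The libraries compared here were picked by that one measured value. A DMS library with a deposited Ttr value of at least 500 normalised reads was called Ttr-rich, and one with at most 100 was called Ttr-poor. Of the 46 libraries of the series, 23 came from DMS and 20 of these entered the comparison, 7 Ttr-rich and 13 Ttr-poor. The 3 DMS libraries between the limits were left out.

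The choroid plexus is a frond of epithelium and vascular stroma that hangs in each brain ventricle and secretes cerebrospinal fluid. Its epithelial cells make and release Ttr, which carries thyroid hormone and, with retinol binding protein, vitamin A. The lateral ventricle borders the dorsomedial striatum and is lined by ciliated ependymal cells, beneath which lies the subventricular zone with its neural progenitors. The striatum itself is built mostly of medium spiny neurons, which do not belong to any of these ventricular tissues.

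Messenger RNA was sequenced from striatal tissue that was cut by laser capture from frozen brains of C57BL/6 mice aged 8 weeks. The animals carried either the wild-type Foxp2 gene or 2 copies of a partly humanised version (Foxp2hum/hum), and the other region captured was the dorsolateral striatum (DLS). The library preparation was adapted to small amounts of RNA, and indexed libraries were pooled on 3 flow cells. The Ttr-rich class held 1 wild-type and 6 Foxp2hum/hum libraries, and the Ttr-poor class held 9 wild-type and 4 Foxp2hum/hum libraries, so class and genotype were unequally mixed and genotype was fitted as a block. The 23 DLS libraries, 11 wild-type and 12 Foxp2hum/hum, served as the other region. The labels tie no library to an animal, so p-values measure the spread between libraries, part of which may be technical. Nor do they say which library ran on which flow cell or how a capture was placed relative to the ventricle. In bulk tissue, fewer cells of a type and less RNA per cell cannot be told apart.

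The 20 libraries held between 17.98 and 34.76 M gene-assigned reads each (M for mega). The Ttr-rich class had 23.5 ± 3.21 M reads (SD, n = 7) and the Ttr-poor class 24.4 ± 4.32 M (n = 13), with an exact permutation p = 0.297 for classes shuffled within genotype. Mitochondrially encoded genes took 21.8% ± 4.71 and 21.2% ± 4.28 of the reads. Within genotype the Ttr-rich share was lower by this measure, with a difference of -0.815 percentage points (exact permutation p = 0.735). Both tests were two-sided, over 2100 arrangements. The wild-type Ttr-poor library 72 stood apart, with 11.9% mitochondrial reads. The labels used here give no sex, and sex-linked transcripts were unequally spread over the classes. Xist, the noncoding RNA of the inactive X chromosome, was above 1000 in 5 of 7 Ttr-rich libraries (3037 to 12000) and in 6 of 13 Ttr-poor ones (2636 to 10956). It was at most 144 in the others, all 3 libraries between the limits included. The Y-linked Ddx3y ran the other way, at 14.4 to 38.7 where Xist was high and 323 to 711 where it was low in DMS. With log2 Xist as a covariate, a fit added after seeing the data, limma called 0 genes (488 at an unadjusted p under 0.05) and the log2 difference was 3.01 for Kl, 3.87 for Kcnj13 and 2.42 for Folr1. Foxp2 had a median of 1291 in Ttr-rich and 1230 in Ttr-poor libraries. Its log2 difference was 0.10 ± 0.13 (SE).

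Ttr ran from a single read to many among the DMS captures. In the Ttr-rich libraries it was 1049, 1115, 1969, 2481, 2873 and 6160 normalised reads in Foxp2hum/hum libraries 90, 27, 87, 67, 84 and 49, and 9582 in wild-type library 18. In the Ttr-poor libraries it ran from 0.847, which is 1 read, to 77.9, with a median of 21.2. The members nearest the limits were libraries 90 (1049) and 27 (1115) on the rich side and 64 (77.9) and 88 (74.8) on the poor side. The 3 libraries left out had 171 (Foxp2hum/hum library 80), 269 (Foxp2hum/hum library 4) and 321 (wild-type library 24). The DLS libraries had a median of 1.09 and reached 137 in 1 wild-type library and 79.7 in 1 Foxp2hum/hum library. These values set the classes, and no test compared the classes on them.

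**Figure D1:**
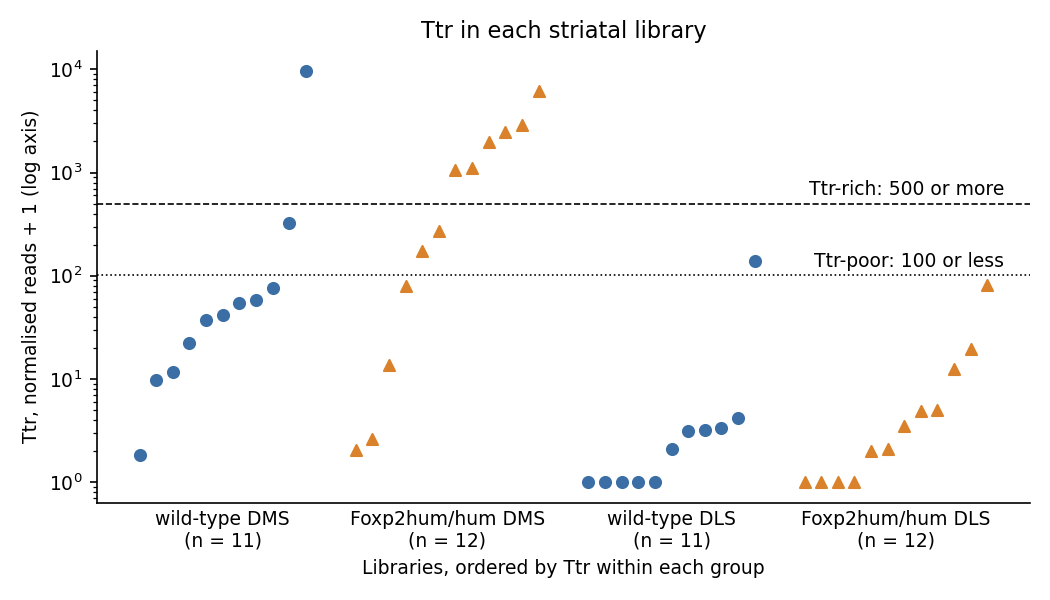
Ttr in normalised reads plus 1, on a log axis, in each of the 46 libraries, ordered within the 4 groups of genotype and region. Blue circles are wild-type and orange triangles Foxp2hum/hum, and the lines mark the limits of 500 and 100. All but 1 of the 7 libraries above the upper line are Foxp2hum/hum DMS.

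Folr1 (chromosome 7, 109006845 to 109019302 on mm9), the folate receptor that loads folate into cerebrospinal fluid and the other marker used to check the captures, sided with Ttr. Its lowest, median and highest values were 21.4, 24.9 and 67.6 in the Ttr-rich libraries and 1.92, 9.77 and 28.7 in the Ttr-poor ones. The classes overlapped only through the wild-type Ttr-poor libraries 50 (28.6) and 56 (28.7). Folr1 was at 0 in 16 of 23 DLS libraries but in none of the 13 Ttr-poor DMS libraries. Ttr-poor captures were thus low in Ttr without being empty of Folr1, and the names of the classes refer to Ttr alone.

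Of 32 genes listed as choroid plexus epithelium, 31 were in the table, and 30 remained after Ttr was set aside. Of these 30, 28 had a higher median in the Ttr-rich than in the Ttr-poor libraries, and 13 were at least 2-fold higher by median. The 2 others were Ace and Rdh5. A filter on the mean over all DMS libraries (at least 10) kept 23 members, and because libraries high in the list can carry a gene past it, the counts among those 23 are descriptions. Among the 23, 8 (34.8%) had a median at least 2-fold higher, against 67 of the 19633 genes tested (0.341%). Their median log2 difference was 1.12, against 0.01 over all genes tested. The fit gave 15 of them (65.2%) an unadjusted p under 0.05 on the higher side, where 1.74% of all genes tested had one, and 0 on the lower side. Libraries were sorted by a choroid plexus transcript, so these shares describe how the list followed Ttr and were not tested.

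Kl, which encodes the hormone and fibroblast growth factor co-receptor Klotho (chromosome 5, 151755182 to 151796384 on mm9), followed Ttr most closely. It was 46.8, 56.1, 60.5, 85.4, 115 and 152 in the 6 Foxp2hum/hum Ttr-rich libraries and 334 in wild-type library 18. In the Ttr-poor libraries it ran from 1.69 through a median of 19.1 to 43.8. Every Ttr-rich library was above every Ttr-poor one, and Kl was the only tested gene of which this held (1 of 19633, 0.00509%), while 0 genes were below in every one. The log2 difference was 3.08 ± 0.51 (SE, 95% interval 2.03 to 4.12). It had the smallest p of all tested genes, and its limma adjusted p = 0.0611 missed the threshold of 0.05. Kl belongs to the choroid plexus list and the libraries were sorted by Ttr, so this p is a description.

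Kcnj13 (chromosome 1, 89282938 to 89291304) encodes the inwardly rectifying potassium channel Kir7.1 of the apical membrane. It was 119 in library 18, between 19.6 and 69.8 in 5 Foxp2hum/hum Ttr-rich libraries and 5.91 in library 27, against a highest value of 8.51 in the Ttr-poor ones, 4 of which were at 0. Its log2 difference was 3.71 ± 0.70 (SE). Kcnj13 lies within Gigyf2, whose value was 6287% of its own, so reads of the host could enter its count. Sostdc1, a secreted antagonist of bone morphogenetic proteins, had a lowest, median and highest value of 6.23, 26.9 and 95.2 in the Ttr-rich and 0, 1.92 and 18 in the Ttr-poor class (log2 3.41 ± 0.73 SE). Among Ttr-rich libraries, 90 (6.23) and 87 (14.2) lay below the highest Ttr-poor value.

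Receptors and secreted factors of the epithelium followed with smaller or more uneven steps. Prlr, the prolactin receptor gene (chromosome 15, 10106993 to 10303504), was 236 in library 18, 118 in library 84 and 13.1 to 46.3 in the other Ttr-rich libraries, and 2.12 to 34 in the Ttr-poor ones (log2 2.30 ± 0.61 SE). Igfbp2, an insulin-like growth factor binding protein gene, had medians of 73.7 and 45.5 (log2 1.12 ± 0.30 SE), and its single highest value, 138, was in the Ttr-poor library 76. Enpp2, which encodes the lysophospholipase autotaxin, had medians of 2512 and 2005 (log2 0.74 ± 0.18 SE). Library 18 reached 5520 and library 49 reached 4317, against a highest Ttr-poor value of 2570 and a DLS median of 1787.

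The members too scarce to pass the filter on the mean are given by their ranges. Aqp1, the water channel gene, was 3.6 to 43 in the Ttr-rich libraries and at most 7.95 in the Ttr-poor ones. Slc4a5, a sodium bicarbonate cotransporter gene, was 1.8 to 86 against at most 8.47. Kcne2, a potassium channel subunit gene, was 5.19 to 55.4 against at most 14.3, and it was at 0 in 9 of the 13 Ttr-poor libraries. Tmem72 was 0.899 to 18.2 against at most 0.883, with 10 of the 13 at 0. Its classes did not overlap either, although the lowest Ttr-rich and highest Ttr-poor values were both 1 read and DLS libraries reached 9.49. The others overlapped widely. Lmx1a was 1.97 to 10.4 in the Ttr-rich and 2.13 to 19 in the Ttr-poor libraries. Steap1 was 0 to 31.7 against 0 to 8.14, and Wfikkn2 was 2.08 to 17.8 against 0.796 to 14.3.

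The remaining tested members were graded. Otx2, the homeodomain factor that specifies the choroid plexus, had medians of 28.5 and 9.52 (log2 1.87 ± 0.63 SE). 1500015O10Rik, which encodes a small secreted protein also called Ecrg4 or augurin, had medians of 53.2 and 18 (log2 2.10 ± 0.78 SE). F5, the coagulation factor V gene, had 36.3 and 13.4 (log2 1.2 ± 0.40 SE), Slc13a4, a sulfate transporter gene, 36.3 and 20.1 (log2 1.26 ± 0.38 SE), and Abca4, a retinoid flippase gene, 13.1 and 7.32 (log2 1.46 ± 0.58 SE). Calml4 had a log2 difference of 1.22 ± 0.51 (SE), but the gene that overlaps it amounted to 7622% of its value. Smaller fitted differences were those of Clic6 (log2 0.40), Slc2a12 (0.42), Msx1 (0.79), Trpv4 (0.78), Htr2c (0.17), Slc31a1 (0.14), Lbp (0.44 ± 0.56 SE) and Cldn1 (1.06 ± 0.68 SE). Rdh5 was the tested member with a difference below 0 (log2 -0.24 ± 0.19 SE). Ace had a higher median in Ttr-poor libraries (127 against 112) and a fitted difference above 0 (log2 0.64 ± 0.30 SE) and library 18 held 347.

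**Figure D2:**
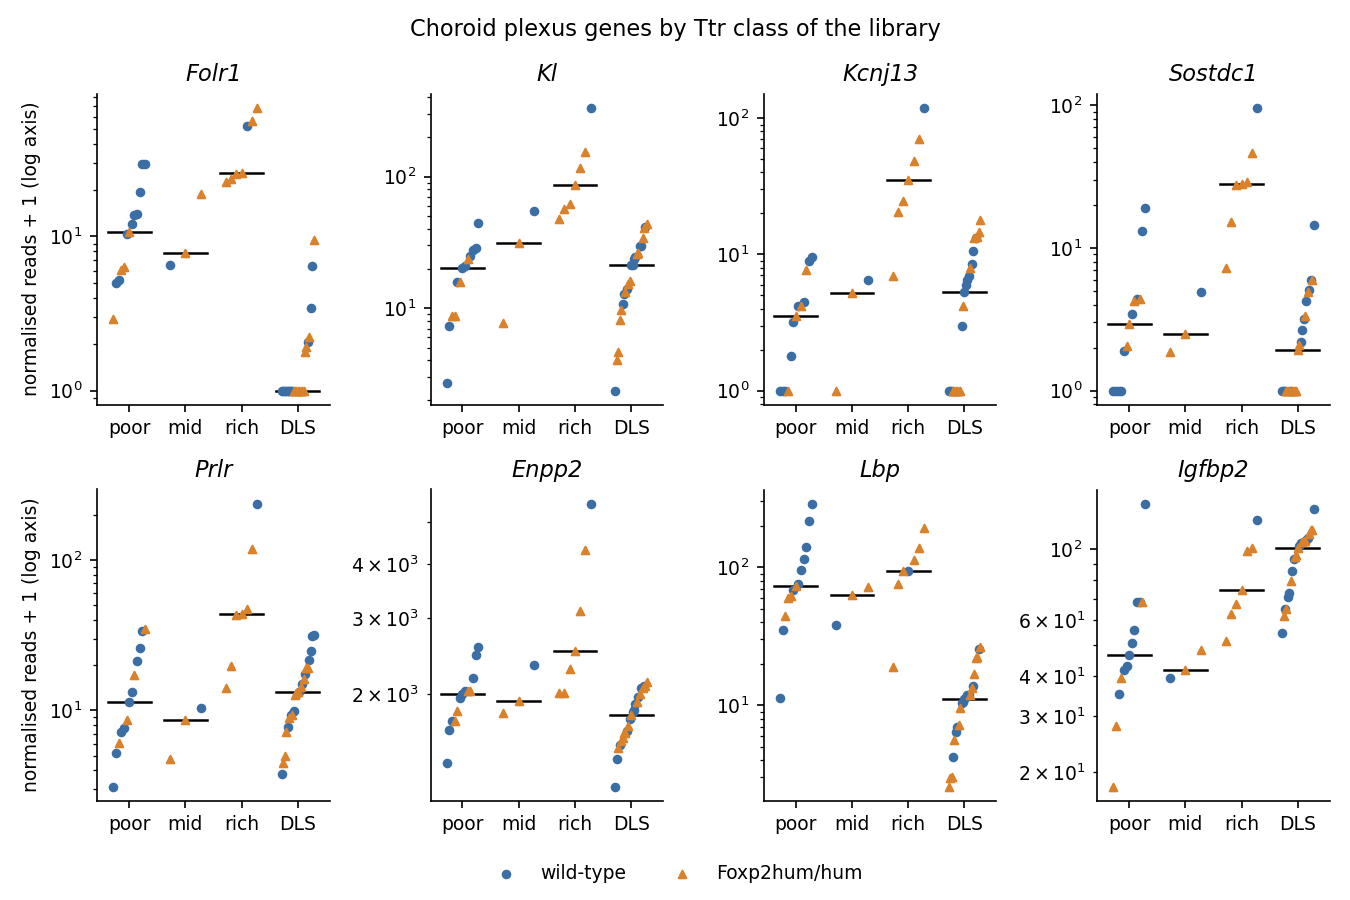
Normalised reads plus 1, on log axes, of 8 genes of the choroid plexus list in each library, by class: Ttr-poor DMS (poor), DMS between the limits (mid), Ttr-rich DMS (rich) and DLS. Circles are wild-type, triangles Foxp2hum/hum and bars class medians; the rich and poor points of Kl do not overlap, and those of Lbp overlap widely.

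Much of the list peaked in 1 library. Wild-type library 18, the highest in Ttr, was the highest of the 23 DMS libraries for 17 of the 30 members (56.7%), against 410 of 19633 genes tested (2.09%). The 30 include members under the filter on the mean, and the 19633 do not. Without library 18 the log2 difference was 2.62 for Kl, 3.07 for Kcnj13, 2.75 for Sostdc1, 1.5 for Prlr and 0.45 for Enpp2. It was 0.82 for Abca4, 0.33 for Ace, 0.68 for Cldn1, 0.11 for Clic6 and 0.21 for Slc2a12. Calml4 was at 0.66 without library 41, Trpv4 at 0.41 without library 64, and Lbp between 0.27 and 0.75 over all such fits. Folr1 went to 2.49, and its value in library 18 (51.2) was behind those of libraries 87 (67.6) and 49 (55.4). Summed over the 30 members, the list came to 4463 to 10282 normalised reads in the Ttr-rich libraries (median 5387) and 3755 to 5000 in the Ttr-poor ones (median 4203). The 3 libraries between the limits had 4237 to 4738, and DLS had 3596 to 5251. By their medians Enpp2, Htr2c and Rdh5 were the most abundant members in each Ttr class, and DLS held them at medians of 1787, 683 and 399. Ace was also among the most abundant members in DLS, at 518 to 1353, against at most 347 in DMS. Rdh5 reads overlap Bloc1s1, at 123% of its value.

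Between the limits, the markers did not move as a block. Library 24 had Ttr at 321 and Kl at 53.4, inside the Ttr-rich range, but Folr1 at 5.50 and Sostdc1 at 3.93. Library 80 had Ttr at 171, Kl at 30.5, Folr1 at 17.8 and Otx2 at 25.5. Library 4 had Ttr at 269 but Kl at 6.76, Folr1 at 6.76, and Kcnj13 and Otx2 at 0.

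Upstream sequences are given for Kl, the tested gene whose classes did not overlap, and for Kcnj13 and Prlr, the other members with steps of over 2 on the log2 scale for which a promoter held the motif searched. They are the 250 bases before the start of each gene, from RefSeq on GRCm38.p6, read 5′ to 3′ on the gene's strand, with the forkhead core TAAACA or its reverse complement in capitals. Kl is at chr5:150952357-150952606 (plus strand), Kcnj13 at chr1:87394730-87394979 (minus strand) and Prlr at chr15:10176988-10177237 (plus strand).
Kl: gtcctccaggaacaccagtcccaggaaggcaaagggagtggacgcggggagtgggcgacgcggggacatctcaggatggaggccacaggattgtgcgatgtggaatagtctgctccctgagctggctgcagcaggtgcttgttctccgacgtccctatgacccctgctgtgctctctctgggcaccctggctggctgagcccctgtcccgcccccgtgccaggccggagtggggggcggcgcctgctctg
Kcnj13: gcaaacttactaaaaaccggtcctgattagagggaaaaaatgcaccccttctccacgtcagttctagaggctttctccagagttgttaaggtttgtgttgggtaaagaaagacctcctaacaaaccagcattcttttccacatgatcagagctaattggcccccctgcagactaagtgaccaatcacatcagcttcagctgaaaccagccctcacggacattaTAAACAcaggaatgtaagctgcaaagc
Prlr: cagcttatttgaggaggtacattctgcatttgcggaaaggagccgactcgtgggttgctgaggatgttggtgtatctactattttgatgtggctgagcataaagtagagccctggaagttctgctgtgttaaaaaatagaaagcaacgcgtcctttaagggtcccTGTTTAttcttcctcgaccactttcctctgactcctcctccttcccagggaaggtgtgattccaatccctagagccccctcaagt

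In Kcnj13 the core began 27 bases before the start (position -27), and in Prlr its reverse complement was at position -85. On either strand, TAAACA was in 2 of the 24 promoters of the list that the RefSeq table held (8.33%) and in 1079 of 12686 promoters of all genes (8.51%). The core letters bound by OTX2, TAATCC, were in 2 of 24 (8.33%, Abca4 and Ace) and in 693 of 12686 (5.46%). The motifs share no overlap in these windows, and a match is only a match of letters. The list was no richer in the forkhead core than promoters at large by these shares.

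Across all genes, 0 of 19633 (0%) passed limma's adjusted threshold between the classes. At an unadjusted p under 0.05 there were 556 (2.83%), of which 341 were higher (1.74%) and 215 lower (1.1%) in the Ttr-rich libraries. Tests on whole reads called few: edgeR called 3 genes, Kl, Kcnj13 and Sostdc1, and DESeq2 called 6, adding Folr1 and Prlr on the higher side and Cenpj on the lower (adjusted p = 0.0497). Apart from Cenpj, every gene called by either tool was a member of the choroid plexus list. For 84.1% of the genes tested, a 2-fold difference lay outside the 95% interval, and for 59.4% a 1.5-fold one did. Within Foxp2hum/hum, 0 genes passed and 680 had an unadjusted p under 0.05 (3.46%). Within wild-type, where 1 library stood against 9 and was assumed to vary like the others, 0 passed and 279 did (1.42%). The difference between the genotypes' differences passed for 0 genes, with 364 at an unadjusted p under 0.05 (1.85%).

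Among genes whose higher class averaged 50 or more, the 5 with the smallest p in each direction are described. On the higher side, they were Kl, Enpp2, Igfbp2 and Prlr, whose values are given above, and Sdccag8, a centrosomal gene outside the choroid plexus list. Sdccag8 had medians of 342 and 270 (log2 0.52 ± 0.13 SE), and reads from overlapping annotation could enter its count. On the lower side they were Cenpj, a centriole assembly gene (medians 128 and 283, log2 -1.25 ± 0.30 SE), Zfp536, a zinc finger gene (1314 and 3164, -1.46 ± 0.36), Ralgapa1, a Ral GTPase activating subunit gene (2073 and 3927, -1.10 ± 0.28), Pitpnm3, a phosphatidylinositol transfer gene (897 and 1368, -0.87 ± 0.23) and Rspo1, which encodes the Wnt potentiator R-spondin 1 (532 and 1109, -1.31 ± 0.35). Each except Kl had a limma adjusted p = 0.998. Zfp536 ran from 1078 to 1712 in the Ttr-rich libraries and from 1011 to 8288 in the Ttr-poor ones, with 8288, 7665, 5558 and 5555 in libraries 64, 76, 34 and 45. The Ttr-rich libraries were uniformly low for it, while the Ttr-poor ones were low or high. DLS libraries, median 2003, reached 6545. The same 4 Ttr-poor libraries also held the 4 highest Ttr-poor values of Ralgapa1, Pitpnm3 and Rspo1, and libraries 64, 34 and 76 the highest of Cenpj. The 5 genes thus varied together between libraries and are not separate results. Against DLS, Zfp536 (log2 0.86 ± 0.30 SE), Ralgapa1 (0.55 ± 0.20), Pitpnm3 (0.59 ± 0.16) and Rspo1 (0.79 ± 0.28) were higher in Ttr-poor DMS by limma's adjusted threshold. So were 11% of all genes tested. These genes were picked for being higher in the same Ttr-poor libraries, so their differences from DLS are descriptions. In Ttr-rich DMS the same 4 differences from DLS were -0.44, -0.44, -0.18 and -0.44 and did not pass it.

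**Figure D3:**
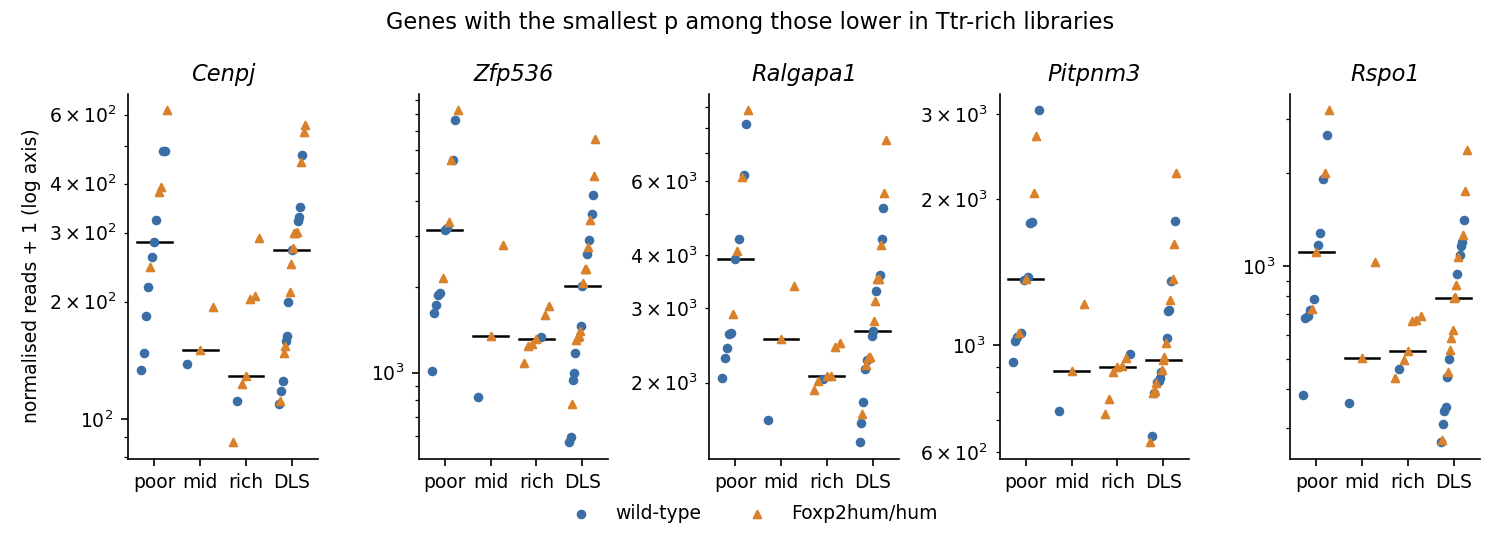
Normalised reads plus 1, on log axes, of the 5 genes named on the lower side, by class as Ttr-poor DMS (poor), DMS between the limits (mid), Ttr-rich DMS (rich) and DLS. Circles are wild-type, triangles Foxp2hum/hum and bars class medians; Ttr-rich libraries are closely grouped for Zfp536, Ralgapa1, Pitpnm3 and Rspo1, and Ttr-poor and DLS libraries reach higher values.

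Genes of the other tissues near the ventricle were examined by lists, none of which had a member past the adjusted threshold. Over all genes tested, 1.74% had an unadjusted p under 0.05 on the higher side and 1.1% on the lower side. The cerebrospinal fluid secretion machinery, the pumps and carriers that choroid plexus shares with other cells, had a median log2 difference of 0.04 over 10 members, with all 10 intervals inside 2-fold. Slc4a2, a chloride bicarbonate exchanger gene, had the largest (log2 0.23 ± 0.16 SE). Of 19 thyroid hormone and retinoid handling genes, median log2 -0.03, 2 had an unadjusted p under 0.05, both lower: Rbp4 (log2 -0.50 ± 0.19 SE), the plasma retinol carrier that binds Ttr, and Crabp2 (-0.55 ± 0.24). Of 10 insulin-like growth factor genes, median log2 0.09, Igfbp2, also a member of the choroid plexus list, and Igf2 (log2 0.53 ± 0.22 SE, 0.26 without library 18) did, both higher. Among 12 stromal and meningeal fibroblast genes, median log2 0.25, 8 were fitted higher and 4 lower. Fmod (1.37 ± 0.64), Col3a1 (1.34 ± 0.60) and Igf2 were higher at an unadjusted p under 0.05. The classes overlapped widely, at 3.6 to 53.4 in Ttr-rich and 0.962 to 44.9 in Ttr-poor libraries for Fmod. For Col3a1 they were 0.899 to 29.7 and 0.85 to 28.8. Fmod and Col3a1 encode matrix proteins of connective tissue.

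Ependyma genes had similar summed levels in the classes. Over 28 ependyma and motile cilia genes the median log2 difference was 0.17, with 19 fitted higher and 9 lower, and 13 intervals lay inside 2-fold. An unadjusted p under 0.05 was found for 1 gene (Rfx2, log2 0.46 ± 0.21 SE), where 2.83% of all genes tested had one. The list summed to 4954 to 9348 in the Ttr-rich libraries (median 7207) and 4925 to 11231 in the Ttr-poor ones (median 7086). Foxj1, the master factor of motile cilia, had medians of 193 and 186 and ranges of 103 to 398 and 93.1 to 577. Ccdc153 had medians of 164 and 169. Foxj1, Ccdc153 and Tmem212 were singled out after their values were seen. Of 19 neuroblast and progenitor genes (median log2 0.23, 14 fitted higher) 0 had an unadjusted p under 0.05. Dcx, a microtubule protein gene of migrating neuroblasts, had medians of 316 and 260 (log2 0.41 ± 0.22 SE, 0.68 without library 18), and the list's sums overlapped throughout, with medians of 4671 and 4447.

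**Figure D4:**
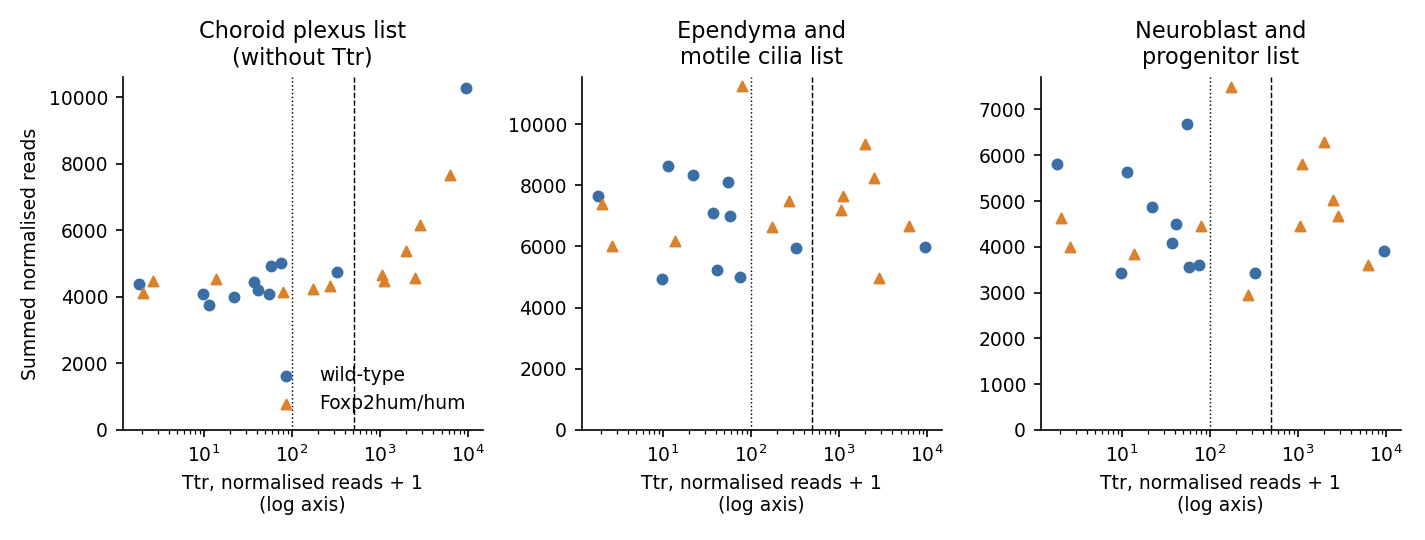
Summed normalised reads of 3 lists (choroid plexus without Ttr, ependyma and motile cilia, neuroblast and progenitor) in the 23 DMS libraries against Ttr plus 1 on a log axis. Circles are wild-type and triangles Foxp2hum/hum, and the lines mark the limits of 100 and 500; the first sum is highest in the 2 libraries highest in Ttr, while the other 2 show no such step.

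The striatal neurons were near equal in the classes. Over 18 genes shared by medium spiny neurons the median log2 difference was 0.04, with all 18 intervals inside 2-fold. Ppp1r1b, the DARPP-32 gene, had medians of 28060 and 29685 (log2 -0.11 ± 0.11 SE, 95% interval -0.33 to 0.12), a difference that was 0.05 after quantile normalisation. Its reads overlap 1700003D09Rik, at 78.8% of its value. Direct pathway genes had a median of 0.05 over 10 and indirect pathway genes -0.02 over 7. Penk, the enkephalin precursor gene, stood at -0.14 ± 0.10 (SE) and Drd2, the D2 receptor gene, at -0.02 ± 0.11. Medial and lateral position also showed little difference. Crym, a thyroid hormone binding protein gene of medial striatum, had medians of 3184 and 3404 (log2 -0.12 ± 0.12 SE) and Cnr1, the cannabinoid receptor gene of lateral striatum, 1520 and 1584. The difference of Cnr1 was about 0, with a 95% interval of -0.33 to 0.32, and its sign turned under quantile and TMM scaling. The dorsolateral list had a median of -0.11 over 3 genes and the medial and ventral list -0.07 over 6, in which Cartpt, a neuropeptide gene, was at -0.58 ± 0.25 (SE). Interneuron genes had a median of -0.02 over 13.

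For tissues that border striatum, medians were 0.14 over 7 septal genes, 0.31 over 7 cortical glutamatergic genes and -0.02 over 6 thalamic and habenular genes. Zic5, a zinc finger gene counted with the septum, had medians of 25.6 and 16.4 (log2 1.09 ± 0.39 SE), while Zic4, of the same family, stood at -0.96 ± 0.60 and Nts, the neurotensin gene, at -0.32 ± 0.30. Zic4 overlaps Zic1, at 1131% of its value, so reads of Zic1 could enter the Zic4 count. Among glia and vessels, the medians were -0.04 over 11 oligodendrocyte genes, 0.11 over 12 astrocyte genes (10 fitted higher), -0.01 over 12 microglia and macrophage genes and -0.04 over 14 endothelial and mural genes. Over 5 erythrocyte genes it was -0.03. Immediate early genes, switched on by neuronal firing, had a median of -0.21 with 14 of 16 fitted lower, and mitochondrially encoded genes -0.16 with 32 of 37 fitted lower. The share of mitochondrial reads is given above, and its part in any difference between the classes was not tested.

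**Figure D5:**
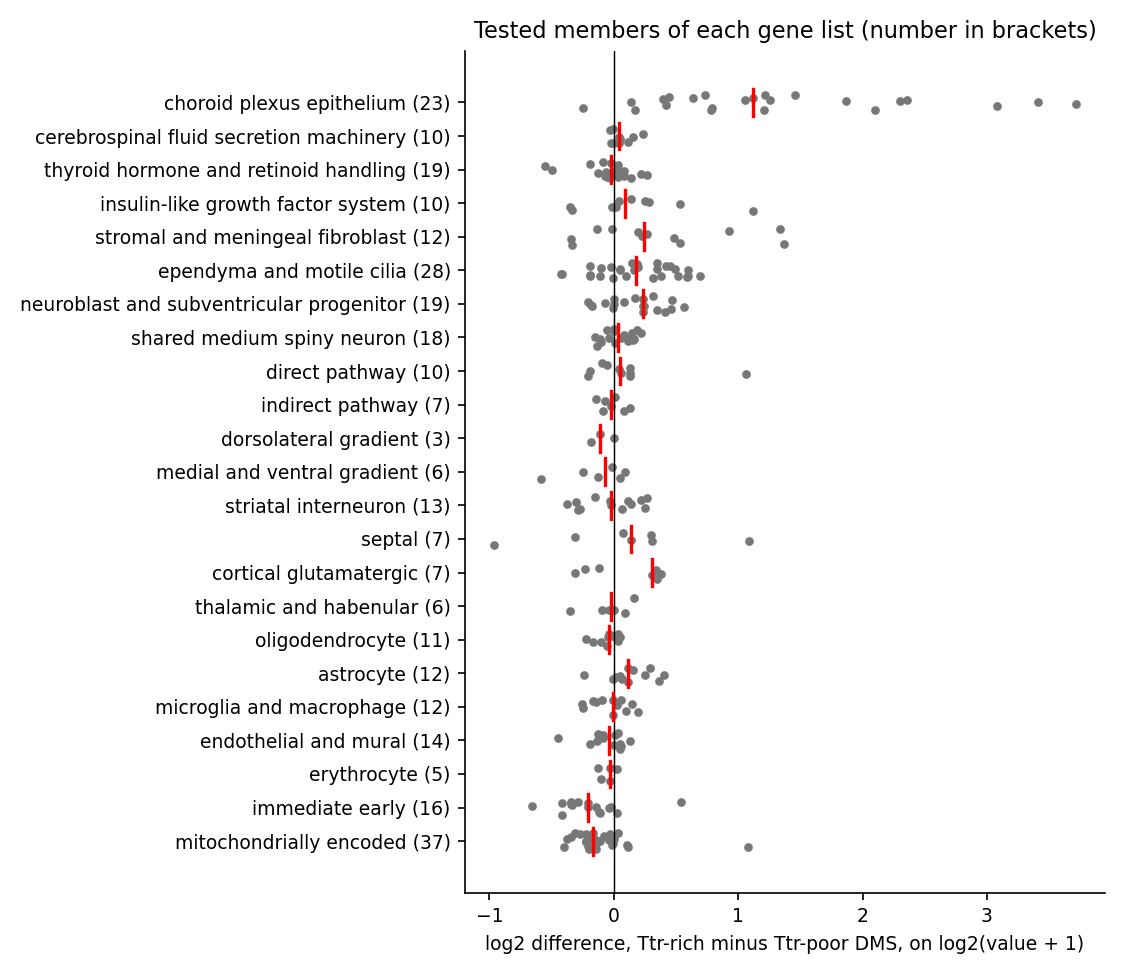
Log2 differences, Ttr-rich minus Ttr-poor DMS on log2(value + 1), of each tested member of the 23 lists (grey points, with the number tested in brackets) and list medians (red bars). The choroid plexus list has a median of 1.12 and reaches 3.71, and the medians of the other lists lie between -0.21 and 0.31.

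Both classes were then set against DLS, with the genotypes averaged, and their results are given side by side because they share the DLS libraries. Ttr-poor DMS differed from DLS in 4400 of 19560 tested genes (22.5%), 2151 higher (11%) and 2249 lower (11.5%), by limma's adjusted threshold. Ttr-rich DMS differed in 1524 (7.79%), 786 higher (4.02%) and 738 lower (3.77%). The 2 counts come from unequal numbers of libraries, and the median SE was 0.131 for the Ttr-poor and 0.207 for the Ttr-rich class, which has 1 wild-type library. Among Foxp2hum/hum libraries of both regions alone, the order of the counts turned, with 1610 for 4 Ttr-poor and 2506 for 6 Ttr-rich libraries. Crym was higher than in DLS by log2 3.55 ± 0.12 (SE) in the Ttr-poor and 3.49 ± 0.19 in the Ttr-rich class. Cnr1 was lower by log2 -2.92 ± 0.10 and -2.94 ± 0.16.

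The choroid plexus genes differed in their level in Ttr-poor DMS. Of 21 members tested against DLS, 6 were higher in Ttr-poor DMS, where 11% of all genes were, and 3 were lower, near the 11.5% of all genes. The 21 had passed a filter on the mean over all 46 libraries (at least 10). Libraries high in the list can carry a gene past it, so these counts are descriptions. In Ttr-rich DMS, whose libraries were sorted by Ttr, 12 were higher and 1 was lower, against 4.02% and 3.77% of all genes, which is a description. Folr1 (log2 2.62 ± 0.37 SE), Lbp, the lipopolysaccharide binding protein gene (2.86 ± 0.38), 1500015O10Rik (2.90 ± 0.52) and Calml4 (2.80 ± 0.44) were already well above DLS in captures with little Ttr. Clic6 (0.80 ± 0.14) and Slc2a12 (0.81 ± 0.20) were above it by less. In the Ttr-rich class the same 6 differences from DLS were 4.87, 3.22, 5.31, 4.09, 1.43 and 1.4. Kl (log2 -0.15 ± 0.38 SE), Kcnj13 (-0.28 ± 0.54), Prlr (-0.02 ± 0.34) and Enpp2 (0.14 ± 0.09) were near the DLS level in Ttr-poor DMS, and 3.31, 3.97, 2.94 and 1.11 above it in Ttr-rich DMS. With the genotypes averaged, wild-type library 18 alone weighed as much in each Ttr-rich value against DLS as the 6 Foxp2hum/hum libraries together. It held Prlr at 236 and Enpp2 at 5520, against 13.1 to 118 and 2007 to 4317 in the Foxp2hum/hum Ttr-rich libraries. Otx2, which was under the filter in that fit, was at 0 in 19 of 23 DLS libraries and in 1 of 13 Ttr-poor ones. The 3 lower members were Ace (log2 -3.04 ± 0.17 SE), Cldn1 (-2.42 ± 0.39) and Igfbp2 (-1.06 ± 0.17), and in the Ttr-rich class Ace stood at -2.15 ± 0.26 from DLS. Genes that overlap Ace (Gm11651, 68.8% of its value) and Slc2a12 (Tbpl1, 697%) could share reads with them.

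Ependyma and progenitor genes were high in DMS whatever the class. Over all genes tested, 11% were higher than in DLS and 11.5% lower in Ttr-poor DMS, and 4.02% and 3.77% in Ttr-rich DMS. The same filter on the mean over all 46 libraries chose the members tested, so their counts are descriptions too. Of 27 ependyma genes tested against DLS, 23 were higher in Ttr-poor and 21 in Ttr-rich DMS and 0 were lower in either, with median log2 differences of 2.48 and 2.57. Foxj1 was higher by log2 1.80 ± 0.21 (SE) and 1.83 ± 0.33, Ccdc153 by 6.40 ± 0.38 and 6.08 ± 0.61, and Tmem212 by 5.64 ± 0.34 and 5.77 ± 0.54. Of 18 neuroblast and progenitor genes, 13 and 12 were higher and 1 was lower in each, with medians of 1.72 and 1.82, and Dcx was higher by log2 2.49 ± 0.19 (SE) and 2.69 ± 0.31.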

How the data were processed

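RNA-seq libraries were deposited as 1 table, whose values are a normalised signal, read counts per gene divided by a size factor of each library; alignment with TopHat 1.4.1 to mm9, bedtools and DESeq are named in the submitters' processing notes, and the sources used here do not state strand handling. Whole reads were recovered from the deposited steps in all 46 libraries, with 100% of values whole within 0.01 reads. The 20 compared libraries held 17.98 to 34.76 M reads.

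Values were tested as log2(value + 1) with limma 3.58.1 (R 4.3.3, trend), genotype as a block, over genes with a mean of at least 10 across DMS libraries. Ttr was left out. P-values were adjusted by Benjamini-Hochberg, with a threshold of 0.05, two-sided. Fold changes on this scale understate the change of low genes. Fits with DLS used means of genotype by class, over genes with a mean of at least 10 across all 46 libraries. Depth and mitochondrial share were compared by exact permutation within genotype. The pipeline was tested on simulated data.

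The members and lists were chosen with earlier results of these data known. Named genes were Ttr, Folr1 and Foxp2, the 5 smallest p in each direction (none passed) whose higher class averaged 50 or more and a standard symbol, the choroid plexus members, and up to 6 of each of 23 lists by smallest p. Genes singled out after their values were seen are marked. Alternatives were tests of the whole reads (edgeR 4.0.16, DESeq2 1.42.0), other scalings, filters, a pseudocount of 10, array weights, no block, stricter Ttr limits (1000 and 50), log2 Ttr as a covariate, log2 Xist as a covariate (added after seeing the data), and leaving out each library. Overlaps and mm9 positions came from GENCODE, promoters from RefSeq (GRCm38.p6).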

Additional observations from a re-analysis of the deposited data

Results flagged for a closer look

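Within groups of 4 to 10 libraries, 7 of 69 groups examined (10.1%) had 1 library whose gap to its nearest neighbour was large for the range of its group. Chance alone flags about 1 in 20 groups. The groups were the same few sets of libraries taken over many measures, so the flags are not independent. The wild-type Ttr-poor library 76 held Igfbp2 at 138, against 34.2 to 67.2 in the other 8, and Pitpnm3 at 3059, against 918 to 1797. Ppp1r1b was 35523 in wild-type Ttr-poor library 50, against 25866 to 30520, and 33891 in Foxp2hum/hum Ttr-poor library 45, against 29170 to 29949. Prlr was 118 in Foxp2hum/hum Ttr-rich library 84, against 13.1 to 46.3 in the other 5. The flags on Ttr, the value that set the classes, are descriptions only. Ttr was 77.9 in Foxp2hum/hum Ttr-poor library 64, against 1.06 to 12.7, and 6160 in Foxp2hum/hum Ttr-rich library 49, against 1049 to 2873.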

How the results depend on the processing

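The count of genes called between the classes, 0 with limma, was 3 with edgeR, 6 with DESeq2, 3 with a pseudocount of 10, 2 without a filter, 2 without the genotype block, 1 after quantile normalisation, 2 with array weights and 2 with log2 Ttr as a covariate. It was 0 with TMM factors, with log2 Xist as a covariate (chosen after seeing the data), with a mean of at least 50 and with the Ttr limits of 1000 and 50. Leaving out 1 library at a time gave 0 to 1, the gene being Kl without library 76, 88 or 31. Within wild-type the range was 0 to 14, with 14 when library 50 was left out, and a pseudocount of 10 gave 19. That comparison could not be fitted without library 18. Within Foxp2hum/hum the range was 0 to 0. The interaction gave 14 with a pseudocount of 10. Against DLS, the ranges were 1353 to 1590 for Ttr-rich and 3599 to 4745 for Ttr-poor DMS. Foxp2hum/hum libraries alone, a setting chosen after seeing the data like these leave-outs, gave 2506 and 1610. With a pseudocount of 10 the log2 differences of Folr1, Sostdc1 and Kcnj13 were 1.47, 1.82 and 2.06.

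The sign of small log2 differences turned for Cux2 (-0.0145) and Ccdc153 (0.130) without the block, Cnr1 (0.0144 with quantile and 0.00149 with TMM scaling), Ppp1r1b (0.0503, quantile) and Hbb-b2 (0.0336 with array weights, 0.0043 with the stricter Ttr limits, 0.00376 with the Xist covariate). Leaving out 1 library gave -0.0998 to 0.0644 for Cnr1 and -0.299 to 0.0437 for Hbb-b2. The cause was not tested. Among the named genes followed through these settings, no other log2 difference changed sign or call, except that Cenpj passed with DESeq2 and Kl, Kcnj13, Sostdc1, Folr1 and Prlr were called as given above. Drd2, Nts, A2m, Col8a1, Xist and Tsix were not followed, so whether their signs hold was not examined. No paired analysis was possible because the library numbers differ between groups and name no animal. Depth limits the scarce transporters, several of which rest on single reads, and the 1 wild-type Ttr-rich library limits the wild-type and interaction values.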

Other observations

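Of the 67 tested genes with a median at least 2-fold higher in Ttr-rich libraries, 8 belonged to the choroid plexus list. The largest ratios of medians among the 67 were those of Xist (5632 and 144) and of Tsix (5634 and 144), which lies antisense to it and cannot be told apart from it without strand. Neither passed limma's adjusted threshold (log2 1.75 ± 1.56 and 1.76 ± 1.56 SE), and both classes held libraries at high and at low levels. A2m and Col8a1 were picked from the others after their values were seen, and neither passed that threshold. A2m, a secreted protease inhibitor gene, had medians of 21 and 4.26 (log2 2.37 ± 0.75 SE). Col8a1, a short-chain collagen gene, had 21.8 and 10.6 (log2 1.61 ± 0.55 SE).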
